A study of Mus musculus with 26 samples.

Results

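Green fluorescent amacrine cells picked with a Synapsin promoter reporter were compared with cells picked with an Ndrg4 promoter reporter, all from retinas labelled P5 and cultured for 5 days. The members were 9 of the 26 single mouse cells of the series: the 4 titled P5 and pSynapsin (cells E1, E2, E3 and E4) and the 5 titled P5 and pNdrg4 whose protocol states 5 days of culture (C1, C6, D3, D5 and D6). The reporters, pSynapsin::GFP or pNdrg4::GFP, were electroporated into the developing retina at P0, either in the animal or in the explant. According to the design text they lit up amacrine cells of different shapes, and the study's aim was to find markers of amacrine cell types. Each cell's RNA was copied from an oligo dT primer, amplified by 35 cycles of PCR and hybridised to 1 Affymetrix mouse expression array. The labels name no strain, animal, retina or culture, so each reporter group was treated as 1 sample and no test was run between them. SDs below describe spread over cells.

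Amacrine cells are interneurons of the inner retina. They release GABA or glycine onto bipolar cells, ganglion cells and each other, and they fall into many types that differ in shape, transmitter and circuit. The AII cell is a glycinergic type that carries rod signals into the cone pathway through electrical synapses. Synapsins are phosphoproteins on the surface of synaptic vesicles, and Ndrg4 encodes a cytoplasmic protein of neurons and heart muscle. In both groups a promoter selects the cells, and no gene was altered. The comparison is between cells picked with different reporters, and whether the other promoter was also active in a cell was not tested.

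Of the genes that the reporters are named for, Ndrg4 and the synapsin gene Syn1 did not separate the groups. The synapsin genes Syn2 and Syn3 are described below. Syn1 had signals of 8887, 156, 2430 and 2791 in pSynapsin cells E1 to E4, against 6, 2366, 820, 736 and 6765 in pNdrg4 cells C1, C6, D3, D5 and D6. It was detected, that is, reached a signal of 1000, in 3 of 4 and 2 of 5 cells, with overlapping ranges and a difference in mean log2 signal of 0.71. Ndrg4 had signals of 3 to 40 in pSynapsin cells and 1 to 97 in pNdrg4 cells, so it was not detected in any of the 9. The labels do not give the promoter fragments of the constructs. The upstream sequences of both genes are shown for orientation, from RefSeq on GRCm38.p6, as the 250 bases before the annotated start; Syn1 lies at chrX:20920919-20921168 (minus strand), and the first of 4 annotated Ndrg4 starts follows chr8:95676724-95676973 (plus strand).
Syn1: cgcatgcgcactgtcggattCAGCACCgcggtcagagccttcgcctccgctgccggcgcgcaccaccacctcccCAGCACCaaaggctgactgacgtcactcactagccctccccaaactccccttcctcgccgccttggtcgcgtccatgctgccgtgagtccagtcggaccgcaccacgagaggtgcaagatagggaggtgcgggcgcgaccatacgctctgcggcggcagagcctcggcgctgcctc
Ndrg4: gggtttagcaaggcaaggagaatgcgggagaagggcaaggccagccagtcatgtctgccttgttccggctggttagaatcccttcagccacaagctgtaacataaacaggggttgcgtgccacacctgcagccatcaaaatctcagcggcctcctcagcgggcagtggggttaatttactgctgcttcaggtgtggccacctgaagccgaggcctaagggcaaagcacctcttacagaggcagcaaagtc
Capitals mark CAGCACC, letters found in the element bound by REST, a repressor of neuronal genes in other cells. Searched on both strands, they occur in 5.73% of 32851 promoter windows of this length. The Syn1 window holds them in 2 places, the first of them 230 to 224 bases before the start, and this Ndrg4 window does not hold them.

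All 9 cells carried amacrine genes. Pax6, which encodes a homeodomain factor of amacrine cells, had signals of 11931 to 20384 in pSynapsin cells and 17445 to 24744 in pNdrg4 cells. Slc32a1, the vesicular transporter for GABA and glycine, had 2997 to 11113 in pSynapsin cells and 3201 to 12917 in pNdrg4 cells. Chat, which defines starburst cells, had a highest signal of 9 in pSynapsin and 39 in pNdrg4 cells. Th, which defines dopaminergic cells, had a highest signal of 22 in pSynapsin and 49 in pNdrg4 cells. Of 6 starburst genes measured, 1 was detected in E2 and 1 in E4, and 0 in each of E1, E3 and the pNdrg4 cells. The 2 starburst genes entered had higher means in pSynapsin cells, with a median difference of 1.27. Between 3291 and 3543 genes were detected in the pSynapsin cells and between 3049 and 3925 in the pNdrg4 cells, of 18193 measured. The same 9 cells differed by labelled reporter in sex-linked RNA, which is described below.

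The transmitter genes overlapped between the reporters. Slc6a9, the glycine transporter of glycinergic amacrine cells, had signals of 2022, 10323, 18517 and 15823 in pSynapsin cells E1 to E4, against 23213, 109, 14042, 12900 and 990 in pNdrg4 cells C1, C6, D3, D5 and D6. All pSynapsin cells thus passed the detection level and 3 of 5 pNdrg4 cells did, with D6 just under it. Gad1, which makes GABA, was at 2 to 12 in pSynapsin cells and at 16150 in pNdrg4 cell C6, with the other pNdrg4 cells at 4 to 89. Gad2, the second GABA-making enzyme, was detected in 1 of 4 pSynapsin cells (E4, 7754) and in 4 of 5 pNdrg4 cells (2513 to 8878). Its difference was -2.45, and with values at 96 or less in E1, E2 and E3 and at 10 in D6 the groups still overlapped (-3.77 without E4). Lamp5, a lysosomal membrane protein gene of many amacrine cells, was at 15370 to 29997 in all pSynapsin cells and at 29854 to 50812 in 3 pNdrg4 cells, with C6 at 4 and D6 at 18. Its difference was 2.33, and 1.20 without C6, and turned to -0.26 as a difference of group medians.

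The AP-2 factors Tfap2a and Tfap2b, which mark most amacrine cells, were lower in pSynapsin cells. Tfap2b had 5, 11792, 26 and 13 in pSynapsin cells E1 to E4, against 14078, 11223, 15758, 11034 and 413 in pNdrg4 cells C1, C6, D3, D5 and D6. Tfap2a had 45, 5528, 58 and 21 in pSynapsin cells, against 17508, 3316, 8263, 9689 and 87 in pNdrg4 cells. Both genes were therefore detected in the same cells, E2 among the pSynapsin and all but D6 among the pNdrg4 cells. The differences were -3.55 for Tfap2b and -3.10 for Tfap2a, and -5.02 and -4.29 without E2. At P8, in 2 pSynapsin and 2 pNdrg4 cells cultured for 8 days, they were -2.07 and 0.23.

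**Figure D1:**
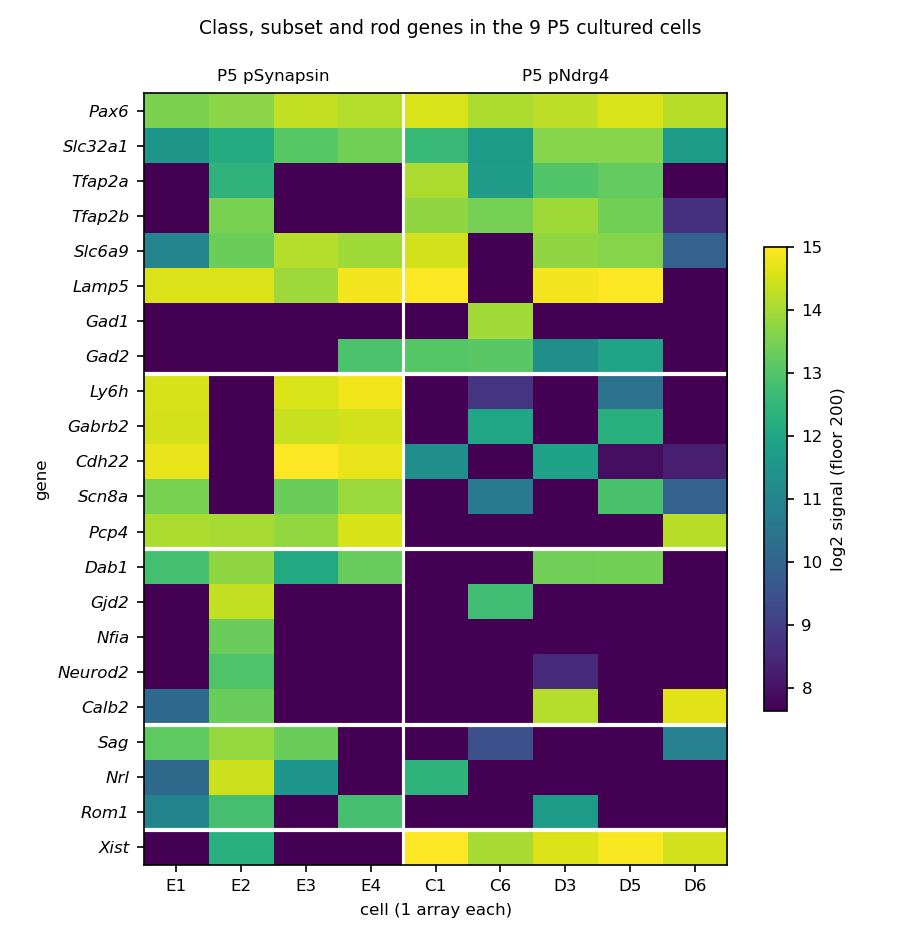
Log2 signals of chosen amacrine, subset, rod and sex-linked genes (rows) in the 4 P5 pSynapsin and the 5 P5 pNdrg4 cultured cells (columns), with signals raised to a floor of 200. Cells E1, E3 and E4 share Ly6h, Gabrb2, Cdh22 and Scn8a and lack both AP-2 genes, while E2 has the opposite pattern and holds Gjd2, Nfia and Neurod2.

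The 4 pSynapsin cells were not alike, and E2 stood apart. Ly6h, which encodes a lynx-type modulator of nicotinic receptors, had 24240, 11, 24573 and 29447 in pSynapsin cells E1 to E4, against 64, 441, 14, 1333 and 70 in the pNdrg4 cells. The GABA-A receptor subunit gene Gabrb2 had 23817, 13, 21456 and 23038 in pSynapsin cells, against 2, 4066, 7, 5117 and 3 in pNdrg4 cells. Cdh22, a cadherin, had 27697, 146, 37492 and 27795 in pSynapsin cells, against 2518, 131, 3672, 240 and 305 in pNdrg4 cells. In each case E1, E3 and E4 lay above every pNdrg4 cell and E2 did not. The sodium channel gene Scn8a gave the same picture, with 11627, 7, 10421 and 15088 in pSynapsin cells and at most 7645 in pNdrg4 cells, but its direction turned (-0.45) with the median over its probe sets. Without E2 the differences were 6.25 for Ly6h, 5.52 for Cdh22, 5.03 for Gabrb2 and 3.81 for Scn8a, against 4.49, 3.70, 3.32 and 2.33 with it.

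E2 carried genes of the AII list instead. It had 20698 for Gjd2, the connexin of AII electrical synapses, 10303 for the transcription factor gene Nfia, 8087 for Neurod2 and 10226 for Calb2 (calretinin). Nfia and Neurod2 stayed at or below 367 in the other 8 cells, and Gjd2 was otherwise seen only in pNdrg4 cell C6 (6846). Calb2 was detected in E1 as well (1146) and was higher in pNdrg4 cells D3 (18601) and D6 (25859). Of 7 AII genes measured, 5 were detected in E2, against 0 to 2 in each of the other 8 cells. Pvalb was not detected in E2 (145). Dab1 differed by 3.04, and by 2.47 to 3.91 with any 1 cell left out, so its difference did not rest on E2. The median difference of the 6 AII genes entered was 0.91, and -0.21 without E2. Across all 8570 genes entered, which are not independent of each other, E1, E3 and E4 correlated with each other at Spearman coefficients of 0.415 to 0.437 and with E2 at 0.333 to 0.372. Pairs of 1 pSynapsin and 1 pNdrg4 cell had a median of 0.359, pairs of pSynapsin cells 0.393 and pairs of pNdrg4 cells 0.374.

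E2 also held RNA of other cell types. Of 18 rod photoreceptor genes measured, 5, 9, 3 and 1 were detected in pSynapsin cells E1 to E4, against 1, 1, 1, 1 and 2 in the pNdrg4 cells. Rod arrestin, Sag, had 9272, 14673, 10465 and 65 in pSynapsin cells, against 22, 691, 91, 8 and 1847 in pNdrg4 cells. The rod factor Nrl had 1165, 22123, 2898 and 11 in pSynapsin cells, against 5523, 8, 5, 3 and 27 in pNdrg4 cells. Of the 11 rod genes entered, 9 had a higher mean in pSynapsin cells, 0 a lower one and 4 were higher by at least 2 log2 units (6.02% of all genes), with a median of 1.88. At P8 5 were higher and 6 lower, with a median of -0.52. Without E2 the P5 median was 0.77, and the P5 difference of Nrl was 1.18, against 2.34 with it. Of 16 Muller glia genes, 2, 6, 3 and 1 were detected in the pSynapsin cells, against 0, 4, 3, 0 and 2 in the pNdrg4 cells. Whether rod or glial RNA contributed to other differences was not tested, and some differences are given with and without E2.

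Entered were 8570 genes that reached the detection level in 2 or more cells of the series. A difference is the mean log2 signal of pSynapsin cells minus that of pNdrg4 cells, with signals raised to a floor of 200, which shortens differences of genes near the floor. By this measure 516 genes (6.02%) were higher and 364 (4.25%) lower in pSynapsin cells by at least 2 log2 units, or 4-fold, together 880 (10.3%). In 88 genes (1.03%) every pSynapsin cell lay above every pNdrg4 cell, and in 45 (0.525%) every pSynapsin cell lay below, together 133 (1.55%). Leaving out 1 cell gave 119 (without D3) to 222 (without E2) genes above and 74 (without E2) to 92 (without D6) below, partly because fewer cells overlap less. In all, 5 genes (0.0583%) were detected in all pSynapsin and no pNdrg4 cells, and 10 (0.117%) in no pSynapsin and all pNdrg4 cells. Without 1 cell these counts were 10 (without D5) to 29 (without E1) and 13 (without E4) to 25 (without D6). The median difference over all genes was 0, and over the 2161 genes detected in at least 13 cells it was 0.18, with 55.6% higher, 7.36% higher by at least 2 and 5.23% lower by at least 2.

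Gaps between the groups were ranked among genes detected in every cell of the higher group, leaving out clone symbols. Timm10 stood widest apart among those higher in pSynapsin cells. It encodes a small chaperone that guides proteins through the space between the mitochondrial membranes. Its signals were 17748, 8806, 10314 and 5946 in pSynapsin cells E1 to E4, against 25, 16, 12, 8 and 43 in pNdrg4 cells C1, C6, D3, D5 and D6, a difference of 5.63, and -0.02 at P8. Eif4e2, a cap-binding protein that represses translation, had 4035, 8901, 4359 and 5972 in pSynapsin cells, against 83, 140, 47, 17 and 50 in pNdrg4 cells (difference 4.79). Casp9, the initiator caspase of the mitochondrial death pathway, had 1086 to 5082 in pSynapsin cells and 36 to 127 in pNdrg4 cells (3.22). In these 3 genes every pNdrg4 cell was under the floor. The other 4 probe sets of Eif4e2 gave 2.19, 0.27, 0.00 and -0.24, and Timm10 has 1 probe set.

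The rest of the 15 genes with the widest gap in this direction belonged to several functions. The ubiquitin ligase gene Trim41 differed by 4.13, Natd1 by 4.09, Jtb by 4.04 and Mapre3, which binds growing microtubule ends, by 4.42. Ing1, a chromatin reader, differed by 3.43, the tetraspanin gene Tspan5 by 3.30, Gtf2f1 of the transcription factor TFIIF by 3.39 and Cdv3 by 3.78. The other probe sets that reached 1000 in some cell, 1 for Trim41 and 2 for Ing1, did not point the same way. Prkcsh, a subunit of the glycan-trimming glucosidase II, differed by 3.04 and the mitochondrial ribosomal gene Mrps21 by 2.58 (1.70 without D6). The remaining members, Hmgcs1 and Scap, belong to cholesterol synthesis and are described below.

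Some of the widest mean differences came with 1 cell out of line. Pcp4, a small regulator of calmodulin, had 17420, 16947, 14348 and 24019 in pSynapsin cells E1 to E4, against 13, 55, 16 and 51 in pNdrg4 cells C1, C6, D3 and D5. D6, at 19049, lay inside the pSynapsin range, so the groups overlapped despite a difference of 5.17. Snx17, a sorting nexin that recycles lipoprotein receptors, had 4582 to 21363 in pSynapsin cells and 33 to 341 in 4 pNdrg4 cells, with C1 at 5462 (difference 4.74). Herpud1, of the endoplasmic reticulum's protein disposal, likewise had 4839 to 10405 in pSynapsin cells and only C1, at 4912, above 188 among pNdrg4 cells (4.22). Ubr4, a ubiquitin ligase, had 5963 to 13072 in pSynapsin cells, with D6 at 8307 and the other pNdrg4 cells at 63 to 192 (4.17). Among pSynapsin cells E4 was the exception for Crym, which binds thyroid hormone (77, against 6123 to 12530 in E1 to E3; difference 4.19), and for Polr3a, the largest subunit of RNA polymerase III (2, against 3740 to 15680; difference 4.04). E2 was the exception for Enho, the precursor of adropin (158, against 6524 to 9945 in E1, E3 and E4; difference 4.07).

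Rph3a led the genes lower in pSynapsin cells after Xist. It encodes rabphilin, which binds Rab3 on synaptic vesicles. Its signals were 6, 55, 58 and 69 in pSynapsin cells E1 to E4, against 10928, 8950, 10452, 3471 and 6684 in pNdrg4 cells C1, C6, D3, D5 and D6, a difference of -5.23 with no overlap. At P8 the direction was opposite, with 6306 and 5048 in pSynapsin cells, against 49 and 65 in pNdrg4 cells (4.82). Mbtd1, which reads methylated histones, had 311, 60, 281 and 2 in pSynapsin cells, against 5239, 3631, 4629, 12594 and 6084 in pNdrg4 cells at P5 (-4.58). It kept this direction at P8, with 51 and 26 in pSynapsin cells, against 7480 and 2926 in pNdrg4 cells (-4.55). Of its 4 probe sets, the other 3 gave -1.40, -0.39 and -0.41.

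The lipid flippase gene Atp11a had 3 to 19 in pSynapsin cells and 1772 to 12866 in pNdrg4 cells (-4.67). Saraf, which damps store-operated calcium entry, had 97 to 395 in pSynapsin cells and 1308 to 18973 in pNdrg4 cells (-4.46). Spag7 differed by -4.27, Pdcd6, a calcium-binding adaptor, by -4.10, and the inositol transporter gene Slc5a3 by -4.09. Rnf145, a ubiquitin ligase of the endoplasmic reticulum that acts on HMG-CoA reductase, differed by -3.90, and Dlst, of the 2-oxoglutarate dehydrogenase complex, by -3.82. Also without overlap were the kinase gene Oxsr1 (-3.33), the AMP deaminase gene Ampd2 (-2.64) and the triosephosphate isomerase gene Tpi1 (-2.57, and -1.58 without E4). The same held for Zfp462 (-2.43) and the membrane proteolipid gene Gpm6b (-2.17, and -1.54 without E4). In Vldlr, a receptor for reelin, no pSynapsin cell exceeded 64 while pNdrg4 cells C6, D3, D5 and D6 had 5931 to 15652, but C1 was at 45 (difference -4.43, and -4.94 at P8).

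Other genes among the 15 largest mean differences had 1 low pNdrg4 cell. H2-K1, a class I histocompatibility gene, was at most 99 in pSynapsin cells and 5537 to 8091 in pNdrg4 cells other than D3, which was at 2 (-4.12). The phosphatase gene Lhpp was at most 12 in pSynapsin cells and 2954 to 12073 in pNdrg4 cells other than D6, which was at 10 (-4.04). The kinase gene Rock1 was at most 76 in pSynapsin cells and at 640 (D3) to 7109 in pNdrg4 cells (-4.06). The early response gene Ier5 was at 43 to 1384 in pSynapsin cells and at 5827 to 30156 in pNdrg4 cells other than C6, which was at 27 (-3.99). Of the 30 genes with the widest gaps so ranked, 15 in each direction, 10 had 1 probe set, and 14 had another that reached 1000 in some cell. In 12 of the 14 another probe set pointed the same way, and in 5 it did so by at least 2 log2 units.

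**Figure D2:**
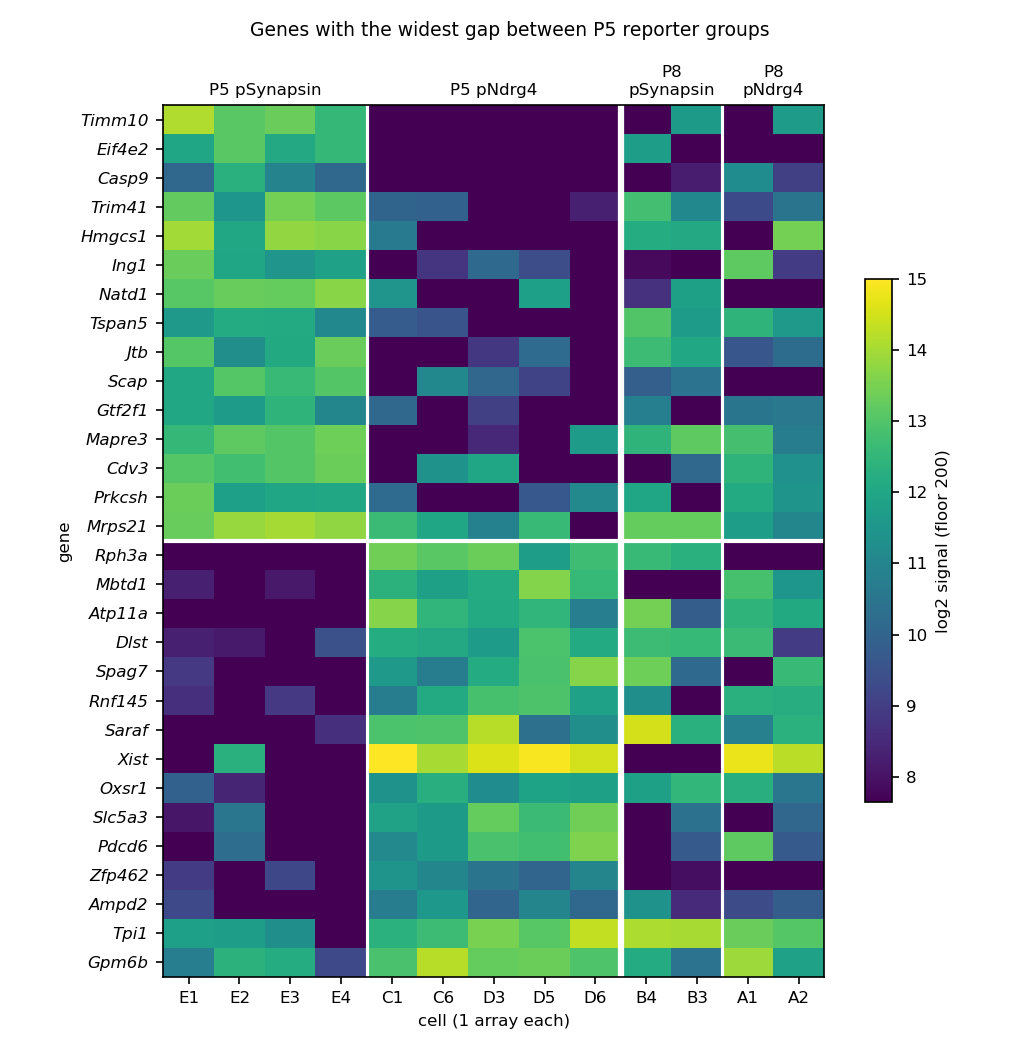
Log2 signals of the 15 genes with the widest gap above (upper rows) and the 15 with the widest gap below (lower rows), among genes detected in every cell of the higher group, in the 4 P5 pSynapsin and 5 P5 pNdrg4 cells, and the same genes in 2 P8 pSynapsin and 2 P8 pNdrg4 cells. The P5 groups do not overlap in any row, while the P8 cells repeat the pattern in some rows (Mbtd1, Xist) and turn it round in others (Rph3a).

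Xist, the RNA that coats the inactive X chromosome in female cells, had 4, 5058, 39 and 35 in pSynapsin cells E1 to E4, against 36652, 16686, 25029, 31212 and 23146 in pNdrg4 cells C1, C6, D3, D5 and D6. The difference was -5.84, and -6.87 at P8. Of the Y-linked genes measured, Eif2s3y was detected in pSynapsin cells E1 (4421) and E3 (1021), Kdm5d in E3 (1598) and Uty in E1 (1040), and they stayed at or below 31 in pNdrg4 cells. The animals are not named, so reporter and sex cannot be told apart in these cells. E2 had both Xist and the rod genes described above.

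Nuclear genes of the respiratory chain and ATP synthase mostly had higher levels in pSynapsin cells. These complexes of the inner mitochondrial membrane pass electrons from NADH and succinate to oxygen and use the proton gradient to make ATP. Of 70 such genes entered, 61 had a higher mean in pSynapsin cells and 9 a lower one, against 49.4% and 46.6% of all genes and 55.6% and 44.4% of the genes detected in at least 13 cells. The median difference was 0.79. The mean log2 signal over the 70 genes was 13.55, 13.15, 13.55 and 13.02 in pSynapsin cells E1 to E4, against 12.58, 12.82, 12.44, 12.63 and 12.20 in pNdrg4 cells C1, C6, D3, D5 and D6. That is 13.32 ± 0.27 in pSynapsin cells and 12.53 ± 0.23 in pNdrg4 cells (SD over cells, n = 4 and 5), with no overlap.

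The same order held in cells that the comparison did not use. The mean level was 13.44 and 13.33 in the 2 P8 pSynapsin cells, against 12.80 and 12.78 in the 2 P8 pNdrg4 cells. There 54 of the 70 genes were higher and 16 lower, with a median of 0.58, against 45% and 43.4% of all genes. In the 10 pNdrg4 cells of P5 for which no culture is mentioned, the level ran from 11.28 to 12.73. Over the series, 6 cultured P5 and P8 pSynapsin cells had 13.02 to 13.55, and all 19 pNdrg4 cells had 11.28 to 12.82. The single E19 pSynapsin cell, cultured for 4 days, was the exception at 11.44. Fewer genes were detected in that cell (2306) and in the 10 cells without stated culture (median 2361.5) than in P5 pSynapsin cells (median 3472). Whether this contributed to their levels was not tested. Cytosolic ribosomal protein genes, which are of similar abundance, differed by a median of 0.25 at P5 (25 of 32 higher and 7 lower), or 0.39 without D6. At P8 their median was 0.66, with 28 higher and 3 lower. The 8 housekeeping genes differed by a median of 0.19 at P5 (-0.10 without E3) and 0.58 at P8, with 7 higher and 1 lower at P8. The P8 difference was therefore not particular to the respiratory chain.

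The difference was spread over the complexes. Of the complex I genes 29 of 32 were higher in pSynapsin cells (median 0.79), of complex III 7 of 9 (0.79), of complex IV 9 of 10 (0.75) and of ATP synthase 14 of 15 (0.85). Complex II was the exception, with 1 of 3 higher and a median of -0.35. Individual differences were small beside the genes named above, and 4 of the 70 were higher by at least 2 log2 units, a share near the 6.02% of all genes and below the 7.36% of widely detected genes. These were the complex I genes Ndufb2 (2.98), Ndufs8 (2.80) and Ndufb11 (2.10, and 1.09 without D5) and the complex III gene Uqcrq (2.76, and 1.82 without C1). In 10 of the 70 genes every pSynapsin cell lay above every pNdrg4 cell, against 1.03% of all genes. The same held for 5 of 32 cytosolic ribosomal and 1 of 8 housekeeping genes, so it was not particular to the respiratory chain.

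Uqcrq had 22679, 15161, 32998 and 13058 in pSynapsin cells E1 to E4, against 212, 11840, 1918, 6168 and 6818 in pNdrg4 cells C1, C6, D3, D5 and D6. The ATP synthase gene Atp5o had 50485, 27965, 34709 and 41476 in pSynapsin cells, against 4303, 12451, 9917, 21300 and 25377 in pNdrg4 cells (1.61). Lower in pSynapsin cells were the succinate dehydrogenase gene Sdhc (-1.47), Cyc1 (-0.87), and Ndufs4 and Uqcrc2 (both -0.79). In Ndufb2 the gap failed by a little, with 10921 to 18562 in pSynapsin cells and up to 11002 in pNdrg4 cells.

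**Figure D3:**
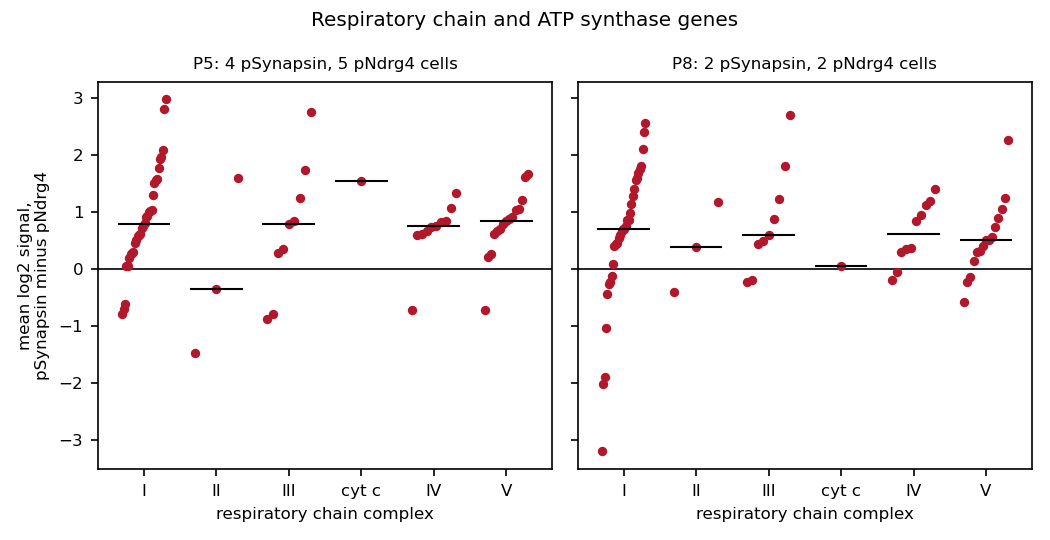
Difference in mean log2 signal (pSynapsin minus pNdrg4) of 70 respiratory chain and ATP synthase genes by complex, at P5 (4 and 5 cells, left) and at P8 (2 and 2 other cells, right). Points are genes and bars are medians, which lie above 0 at both ages for complexes I, III, IV and V (ATP synthase).

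Some promoters of these genes hold the letters of an NRF-1 element. NRF-1, a transcription factor of many genes for mitochondrial proteins, binds a palindrome with the core GCGCA, any base, then GCGC. That core, searched on both strands, occurs in 15.6% of 64 upstream windows of 59 of the 70 genes (9 genes), against 3.74% of all 32851 windows and 14.3% of 21 windows of cholesterol synthesis genes. Of those 9 genes, 8 had a higher mean in pSynapsin cells, up to 1.59 for Sdha, and Atp5c1 a lower one (-0.71). In the whole list 61 of 70 genes were higher, a share near that of these 9. Shown are 60 bases around the first match, on the gene's strand, for the 3 with the largest differences, with the core in capitals: Sdha at chr13:74350304-74350363 (minus strand), Ndufa5 at chr6:24527682-24527741 (minus) and Cox6a1 at chr5:115349086-115349145 (minus), from RefSeq on GRCm38.p6. A match describes the letters and does not show binding.
Sdha: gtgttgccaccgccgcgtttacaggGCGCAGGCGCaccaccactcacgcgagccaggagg
Ndufa5: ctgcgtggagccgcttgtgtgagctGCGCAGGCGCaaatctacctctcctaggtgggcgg
Cox6a1: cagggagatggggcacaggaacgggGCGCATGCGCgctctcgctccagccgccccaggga

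Genes of cholesterol and isoprenoid synthesis were higher in most pSynapsin cells. When sterols are low, the escort protein SCAP carries SREBP factors out of the endoplasmic reticulum, and these switch on the genes of the pathway, among them Hmgcs1, whose product makes HMG-CoA. Hmgcs1 had 16074, 4163, 14451 and 13317 in pSynapsin cells E1 to E4, against 1662, 43, 3, 2 and 66 in pNdrg4 cells C1, C6, D3, D5 and D6, a difference of 5.12. Of its 5 probe sets, 4 differed by 3.44 to 5.12. Scap had 4184, 8464, 6344 and 8443 in pSynapsin cells, against 197, 2146, 1082, 567 and 35 in pNdrg4 cells (3.57). Both genes separated the P5 groups.

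At P8 Scap had 936 and 1383 in pSynapsin cells, against 5 and 62 in pNdrg4 cells (2.51). For Hmgcs1 the P8 cells overlapped, with 4732 and 4301 in pSynapsin cells, against 29 and 11227 in pNdrg4 cells. The Hmgcs1 upstream window, at chr13:119690101-119690350 (plus strand, RefSeq on GRCm38.p6), is shown because it holds the letters TCACCCCAC of a sterol regulatory element, in capitals, 137 to 129 bases before the start.
Hmgcs1: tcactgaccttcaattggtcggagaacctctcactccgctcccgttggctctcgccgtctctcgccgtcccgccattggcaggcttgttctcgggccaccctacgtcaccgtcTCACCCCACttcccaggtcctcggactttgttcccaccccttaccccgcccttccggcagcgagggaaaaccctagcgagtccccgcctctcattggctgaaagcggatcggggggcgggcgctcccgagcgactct
These letters, searched on both strands, occur in 0.496% of 32851 windows and in 1 of 21 windows of 15 genes of the pathway, this one.

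The rest of the pathway followed in part. Of 18 genes entered, 13 had a higher mean in pSynapsin cells and 4 a lower one (49.4% and 46.6% of all genes), and 4 were higher by at least 2 log2 units (6.02% of all genes), with a median of 1.08. Those 4 were Hmgcs1, Scap, Pmvk (phosphomevalonate kinase, 2.14, and 1.61 without D3) and Sqle (squalene epoxidase, 2.01, and 1.14 without E4). The median was 0.59 without E1 and 1.78 without E2. Of 23 genes measured, 10, 3, 9 and 13 were detected in pSynapsin cells E1 to E4, against 6, 8, 3, 3 and 2 in the pNdrg4 cells. E2 was again apart, and the mean log2 signal of the list was 8.41 in E2 and 9.83 to 10.92 in the other pSynapsin cells, against 8.16 to 9.72 in pNdrg4 cells. At P8 the median was -0.11, with 8 genes higher and 9 lower.

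Glycolysis and hypoxia genes leaned the other way. Of 26 entered, 9 had a higher and 17 a lower mean in pSynapsin cells (49.4% and 46.6% of all genes). The median was -0.69, and at P8 it was 0.32. Lower by at least 2 log2 units, as were 4.25% of all genes, were 4 of them, Ddit4, Tpi1, Pdk1 and Bnip3. Ddit4 (-2.97) is an inhibitor of mTOR signalling induced by hypoxia, and Tpi1 differed by -2.57. Pdk1 (-2.44, and -1.79 without D6) is the kinase that closes the entry of pyruvate into mitochondria. Bnip3 (-2.05, and -1.28 without D6) belongs to mitochondrial turnover. Ddit4 had 2, 115, 176 and 91 in pSynapsin cells E1 to E4, against 1151, 898, 435, 2485 and 8578 in pNdrg4 cells C1, C6, D3, D5 and D6, with no overlap. All 3 probe sets of Tpi1 gave -2.56 or -2.57. Among the 9 cells D6 held the highest level of the list, with a mean log2 signal of 12.73, against 10.21 to 10.84 in pSynapsin cells and 10.43 to 11.02 in the other pNdrg4 cells. Without D6 the median was -0.20.

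**Figure D4:**
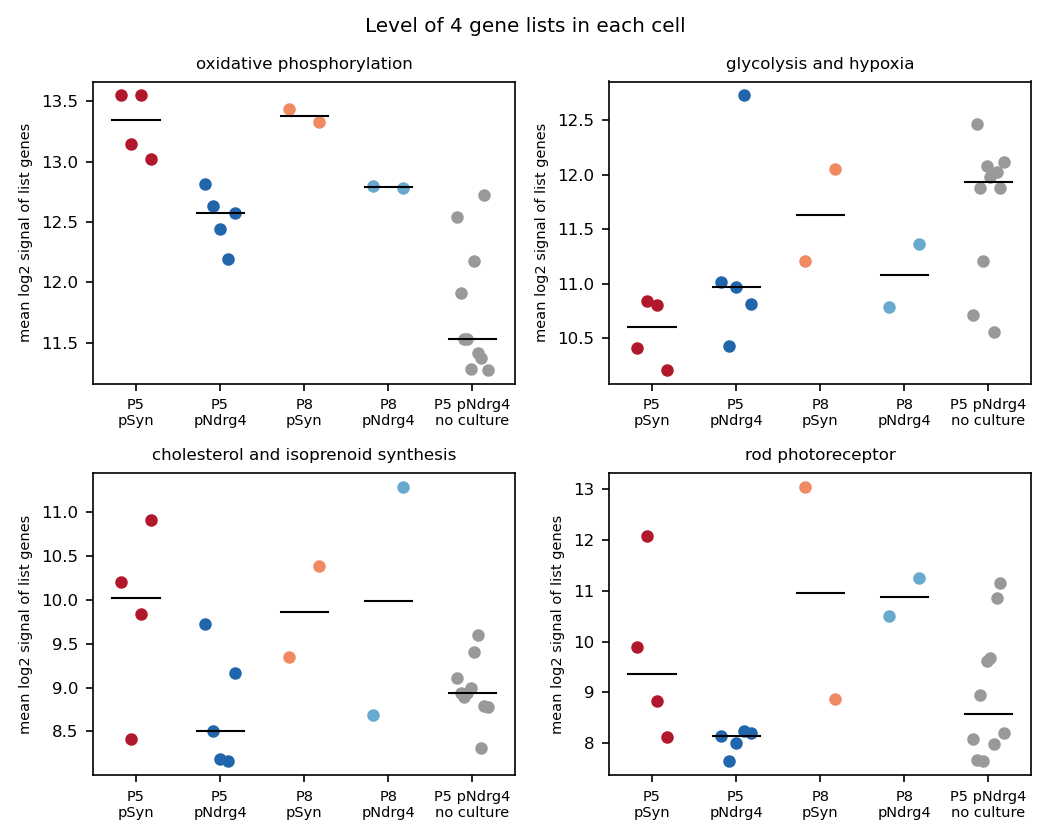
Mean log2 signal of 4 gene lists in each cell (points) with the median over cells (bars), by reporter and age, for P5 and P8 pSynapsin (pSyn) and pNdrg4 cultured cells and for pNdrg4 cells of P5 without stated culture. The P5 pSynapsin cells lie above all pNdrg4 cells only for oxidative phosphorylation, and among the P5 cultured cells E2 is highest in the rod list and D6 in the glycolysis list, with some P8 and other P5 cells at similar or higher levels.

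Ion channel and receptor genes differed singly. Asic1, an acid-sensing channel, had 22867, 8653, 18244 and 14 in pSynapsin cells E1 to E4, against 4437, 63, 108, 10 and 28 in pNdrg4 cells (3.80). The sodium channel gene Scn2a had 4436, 4122, 5 and 9566 in pSynapsin cells and at most 25 in pNdrg4 cells. Of 18 voltage-gated and acid-sensing channel genes, 10 had a higher and 8 a lower mean in pSynapsin cells. Of these, 3 were higher by at least 2 log2 units and 1, Cacna2d3 (-2.18, and -1.89 without C1), lower (6.02% and 4.25% of all genes). The AMPA receptor subunit gene Gria4 had 581, 1062, 3969 and 8 in pSynapsin cells, against 7571, 12722, 444, 12370 and 8488 in pNdrg4 cells (-2.68). Also lower were the kainate receptor subunit gene Grik3 (-2.42, and -1.79 without D3) and the GABA-A subunit gene Gabra3 (-2.60, and -1.90 without D6). Each was at the floor in at least 3 pSynapsin cells. Of 8 glutamate receptor genes, 2 were higher and 6 lower, with a median of -0.84 (-0.53 without E1, -1.41 without E2), and at P8 5 were higher and 2 lower, with a median of 0.18.

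Vesicle and calcium genes were divided. Of 32 genes of synaptic vesicles and release, 17 had a higher and 14 a lower mean in pSynapsin cells (49.4% and 46.6% of all genes). Their median was 0.08 (-0.04 without E1). The vesicle protein gene Syp (2.04, and 1.29 without D3) and Syn3 (2.56, and 1.85 without E4) were higher by at least 2 log2 units. Rph3a and Syn2 (-2.06, and -1.29 without D5) were lower by as much. The shares of all genes were 6.02% higher and 4.25% lower. Syn3 had 2392, 23, 4301 and 8999 in pSynapsin cells E1 to E4 and at most 1227 in pNdrg4 cells, whereas Syn2 was at most 49 in pSynapsin cells and at 7081 and 7118 in pNdrg4 cells C6 and D5. Of 13 calcium-binding protein genes, 5 were higher and 8 lower. Necab1 differed by -2.83 (at most 266 in pSynapsin cells and up to 10401 in pNdrg4 cells) and Hpcal1 by 2.39 (1.74 without E3). Camk2n1, an inhibitor of CaM kinase II, had 2516, 8, 479 and 789 in pSynapsin cells, against 6192, 3522, 8921, 1458 and 3060 in pNdrg4 cells. It differed by -2.55, and by -1.98 without E2.

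Guidance and cytoskeletal genes showed the same mixture. Of 24 axon guidance genes, 11 had a higher and 12 a lower mean in pSynapsin cells, with 3 each beyond 2 log2 units (6.02% of all genes higher and 4.25% lower) and a median of -0.02 (0.05 without D5). The semaphorin receptor gene Nrp1 had 3293, 1822, 2180 and 5249 in pSynapsin cells, against 7, 10, 26, 11 and 12541 in pNdrg4 cells C1, C6, D3, D5 and D6 (2.65). Plxnb1, a plexin, was detected in E1 and E2 alone among the 9 cells (2.36, and 1.56 without E2), and the ephrin gene Efnb1 was at most 155 in pSynapsin cells and 172 to 7031 in pNdrg4 cells (-3.16). Of 27 genes of immature neurons, 15 were higher and 12 lower, with Dpysl4, a dihydropyrimidinase-like protein of growing neurons, at 2.22 (1.37 without D6) and Map2 at -3.18. Map2, of dendritic microtubules, had 27, 5090, 6 and 2 in pSynapsin cells, against 5609, 7770, 3588, 10047 and 714 in pNdrg4 cells. Of the amacrine transcription factors entered, 16 of 29 had a higher mean and 11 a lower one, and in this list, which leaves out the AP-2 genes, Tshz1 was lower by the most (-3.21; at most 57 in pSynapsin cells and 1444 to 5371 in 4 pNdrg4 cells).

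Each cell also held genes detected in it alone among the 9. In E1 these included the potassium channel gene Kcnj9 (13116), in E2 the neurturin receptor gene Gfra2 (21982) and the immediate early genes Fos (13336) and Egr1 (11573), and in E4 Baiap3 (19182). Among pNdrg4 cells, C6 alone had Gad1 and the extracellular protein gene Reln (13083), C1 had Sema6d (10650), D5 Pcsk1n (12972) and D6 Nxph4 (17122).

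The P8 cells gave a separate reading of the reporter difference. Of the 516 genes higher by at least 2 log2 units at P5, 66 (12.8%) were so at P8 and 57 were lower by as much, against 11% higher and 9.98% lower among all genes at P8. Of the 364 lower genes, 40 were lower by at least 2 at P8 and 46 (12.6%) higher. These shares lay near those of all genes in both directions. Genes without overlap at P5 were read in the same way. Of 88 higher genes, 27 (30.7%) were also above without overlap at P8 and 11 (12.5%) below, against 10.9% and 10.4% of all genes. Of 45 lower genes, 8 (17.8%) were below at P8 and 5 (11.1%) above.

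**Figure D5:**
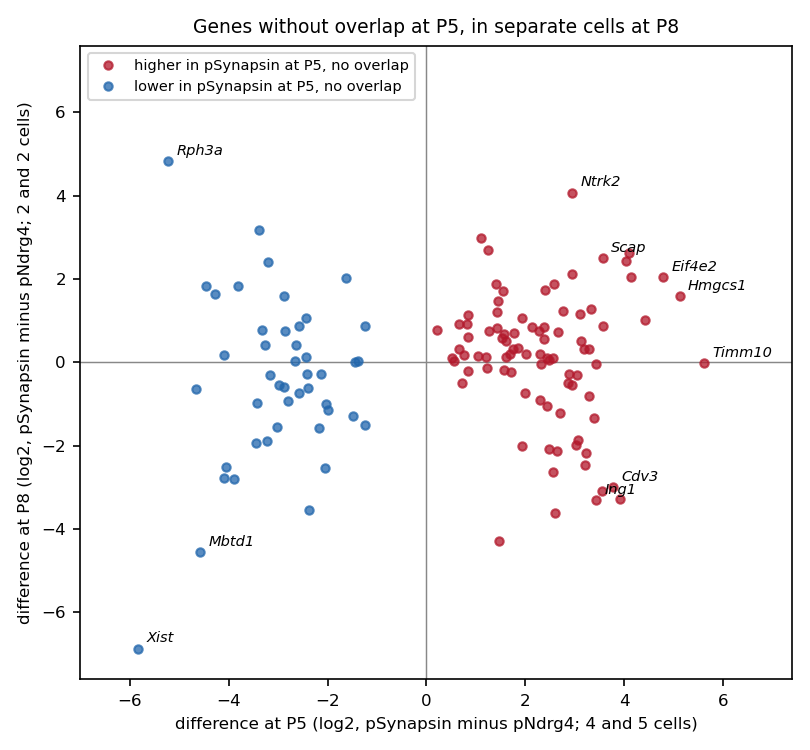
Difference in mean log2 signal (pSynapsin minus pNdrg4) at P5 (horizontal axis, 4 and 5 cells) against P8 (vertical axis, 2 and 2 other cells) for the 133 genes whose groups did not overlap at P5. Xist and Mbtd1 lie far below 0 on both axes, Scap and Ntrk2 above 0 on both, and Rph3a and Ing1 have opposite signs.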

How the data were processed

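Each of 26 single cells was hybridised to 1 array. The deposited intensity values are signals that the authors made with MAS5, per the submitters' processing notes; its version and settings are not given in the sources used here. The deposited signals were used as they stand. Of 45101 probe sets, 34958 were paired with 1 gene, 932 with several and 9211 with none, and 64 are controls. Each of 18193 genes was represented by its probe set with the highest mean log2(max(signal, 200)) over the 26 cells, and 8570 genes with a signal of at least 1000 in at least 2 cells were entered. No read depth exists for arrays, and their number limits the precision.

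Groups came from the titles and protocols. Differences are means of log2 values, pSynapsin minus pNdrg4. The labels name no animal or culture, so no p-value was made. Named genes were, in each direction, the 15 with the widest gap between groups among those detected in every cell of the higher group and the 15 with the largest mean difference among those detected in at least 3 cells of it, up to 4 per direction in each of 35 gene lists together with class-defining members, and up to 5 detected in 1 cell alone; clone symbols were not named. The members and lists were chosen with earlier results of these data known. Alternatives covered the floor, probe set, normalization, gene filter, detection level, group summary and each cell left out. Scripts ran under Python 3.11.15 (pandas 2.3.3, numpy 2.4.6) and were tested on simulated data; figures used matplotlib 3.10.9. Promoter windows were the 250 bases before each RefSeq start on GRCm38.p6.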

Additional observations from a re-analysis of the deposited data

Results flagged for a closer look

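In 55 groups of values checked with Dixon's test, 10 had a cell far from the others of its reporter. The test marks about 1 in 20 groups of unselected normal values. Most genes here were chosen by their differences in these cells, and signals were raised to the floor, so that rate is no yardstick for the 10. Genes with more than 1 cell of the group at the floor were not checked. Of the log2 signals of pSynapsin cells, those of E2 were low for Enho (7.644), Ly6h (7.644), Hmgcs1 (12.02) and Trim41 (11.5). E1 was high for Prkcsh (13.36) and Ubr4 (13.67), and E4 was low for Tpi1 (7.644). Of the pNdrg4 cells, D3 was low for H2-K1 (7.644) and Rock1 (9.321), and C1 was low for Vldlr (7.644).

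In 5 of the named genes the reporter groups did not overlap at either age and had opposite directions, a contrast between the ages that was not tested. Casp9 differed by -2.181 at P8, against 3.22 at P5. Cdv3 differed by -2.999 at P8, against 3.78 at P5, and Ing1 by -3.303, against 3.43. Rph3a differed by 4.818 at P8, against -5.23 at P5, and Tpi1 by 0.8755, against -2.57. The P8 values rest on 2 cells of each reporter. Of all genes without overlap at P5, 12.5% of the higher and 11.1% of the lower ones were opposite without overlap at P8. Among all genes entered, 10.4% lay below and 10.9% above without overlap at P8, so such reversals were near the background.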

How the results depend on the processing

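No paired analysis was possible because the replicate numbers follow accession order and no label pairs the cells. The number of genes higher by at least 2 log2 units (516) was 962 with a floor of 50, 206 with a floor of 500, 946 from group medians and 330 when a gene's probe sets were summarised by their median. The number lower (364) was 892, 117, 833 and 211 under the same settings. Leaving out 1 cell gave 534 to 648 higher and 415 to 488 lower. Genes detected in all pSynapsin and no pNdrg4 cells (5) numbered 8 at a detection level of 500 and 8 at 2000, and 10 to 29 without 1 cell. Those detected in no pSynapsin and all pNdrg4 cells (10) numbered 6 at 2000 and 13 to 25 without 1 cell. Genes without overlap numbered 119 to 222 (pSynapsin above) and 74 to 92 (pNdrg4 above) without 1 cell. Scaling to the 75th percentile gave 115 above and 31 below, and quantile normalization 68 and 46, against 88 and 45. The oxidative phosphorylation median (0.79) was 0.63 with group medians, 0.66 with quantile normalization, 1.06 with 75th percentile scaling and 0.62 relative to genes detected in at least 13 cells, a setting chosen after seeing the data; without 1 cell it was 0.72 to 0.84. Without 1 cell the medians were 0.59 to 1.78 for cholesterol synthesis, -0.83 to -0.20 for glycolysis, 0.77 to 2.51 for rods and -0.21 to 1.41 for AII genes. The glycolysis median (-0.69) was -0.18 with group medians and -0.34 without a detection filter. The rod median (1.88) was 1.15 and 0.56 under the same settings. The direction turned for Ebf3 (0.12) and Scn8a (-0.45) with the median over probe sets, and for Lamp5 (-0.26) and the glycinergic list (-0.0067) with group medians. The cause was not tested. Of 1687 values of 94 genes under these settings, 1629 stayed within 1 SD over cells. Leaving out 1 cell cannot move a mean difference by as much as that SD. The values from those settings therefore say nothing about stability.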

Other observations

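Other gene groups of mitochondria and protein turnover, chosen after the data were seen, are given as values. Of 70 mitochondrial ribosomal protein genes, 40 had a higher and 30 a lower mean in pSynapsin cells (median 0.45, and 0.40 at P8). Of 20 genes of mitochondrial import, the group of Timm10, 15 were higher and 5 lower (0.84, and 0.29 at P8), and of 21 genes of respiratory chain assembly 14 were higher and 7 lower (0.26, and -0.31 at P8). Of 36 proteasome subunit genes, 19 were higher and 16 lower (0.12), and of 41 translation initiation factor genes 19 were higher and 21 lower (-0.02).

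The genes whose reporter groups did not overlap and had the same direction at both ages were also read after their values were seen. Of the 27 higher in pSynapsin cells, 8 belong to the respiratory chain and ATP synthase, 5 to the cytosolic ribosome and 14 to neither list; these lists hold 70 and 32 of the 8570 genes entered. One of the last is Ntrk2, the receptor for BDNF, with 5191, 5625, 7316 and 13839 in pSynapsin cells E1 to E4, against 910, 4242, 16, 5147 and 30 in pNdrg4 cells C1, C6, D3, D5 and D6. At P8 Ntrk2 had 8025 and 6690 in pSynapsin cells, against 123 and 949 in pNdrg4 cells. The 8 lower genes were Xist, Mbtd1, Rock1, Rnf145, Ngdn, Klhl7, Ncaph2 and Rnf7. Of 1784 probe sets without a single gene name that were detected in at least 2 cells, 27 lay above and 6 below without overlap at P5, against 1.03% and 0.525% of the named genes entered.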
